A study of Mus musculus with 13 samples.

Results

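The genes described here are the core machinery of the G1 phase of the cell cycle: the D cyclins Ccnd1, Ccnd2 and Ccnd3, the E cyclins Ccne1 and Ccne2, the kinases Cdk2, Cdk4 and Cdk6, and the inhibitors Cdkn1a and Cdkn1b. They were chosen by name, as the probe sets annotated to these symbols and to no other gene. No measured value enters that rule, although the list was drawn up with earlier results of these data known. The 10 genes are 10 of the 18193 symbols on the array and hold 28 of its 45101 probe sets. All 10 were among the 13785 genes above the filter on low values, through 25 of their 28 probe sets.

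In G1, mitogen signals raise the D cyclins, which bind Cdk4 and Cdk6. These kinases phosphorylate the retinoblastoma protein and its relatives, which frees the E2F transcription factors to induce genes of DNA synthesis and the E cyclins. The E cyclins then activate Cdk2 and carry the cell into S phase, while p21 (Cdkn1a) and p27 (Cdkn1b) bind and hold back the cyclin-kinase complexes. In melanoma with a mutant BRAF kinase, the RAF, MEK and ERK cascade is always on and keeps cyclin D1 high, and BRAF or MEK inhibitors are known to arrest such cells in G1.

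The samples were SM1 tumours, a transplantable mouse melanoma known to carry the V600E form of BRAF, grown in C57BL/6 mice. All recipients were given splenocytes by adoptive transfer. The donors were either pmel-1 mice, a transgenic line with a T cell receptor against the melanocyte protein gp100, or ordinary C57BL/6 mice (whose hosts are called control recipients here). In pmel-1 recipients, 3 arrays measured tumours given dabrafenib, a BRAF inhibitor, together with trametinib, a MEK inhibitor, 2 dabrafenib alone, 2 trametinib alone and 2 vehicle. In control recipients, 2 arrays measured tumours given both drugs and 2 given vehicle. There was no control recipient with a single drug, and the sources used here give no dose, time, sex or age. The labels do not say whether replicates were separate animals, so each p-value measures only the spread between these arrays, which may be technical.

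Whole tumours were measured, so fewer cells of a type and less RNA per cell cannot be told apart. Levels are log2 intensities, on which a difference of 1 is a doubling, and the number of arrays limits the precision. The melanocyte markers are the defining markers of this tumour. Their mean level over 7 markers was 12.61 to 12.76 in drug-treated and 11.97 to 12.08 in vehicle-treated tumours. Among them Tyrp1 was low, at 4.87 to 6.38 and under the filter on every vehicle array, while the others were high on every array. The mean over 7 general leukocyte markers was 9.95 to 10.47 in pmel-1 tumours given both drugs or dabrafenib, 8.92 to 9.25 with trametinib and 8.51 to 8.56 with vehicle. In control recipients it was 8.71 to 8.87 with both drugs and 8.17 to 8.19 with vehicle, and none of the 7 was under the filter level of 5.79 on every array. The log2 ratio of 3′ to 5′ control probe sets, a sign of RNA quality, was 1.0 to 1.54 in the drug-treated pmel-1 tumours and 0.641 to 0.651 with vehicle, whereas in control recipients it was 0.345 to 0.565 with both drugs and 0.407 to 0.721 with vehicle. The fat marker Adipoq read 10.05, 10.32 and 9.30 in pmel-1 tumours given both drugs (replicate 2), dabrafenib (replicate 2) and trametinib (replicate 1), against 4.75 to 7.54 on the other 10 arrays. The mean over 6 fibroblast markers was 9.001 to 10.003 with both drugs and 8.58 to 8.70 with vehicle in pmel-1 recipients, and 10.54 to 11.13 with both drugs and 8.57 to 10.001 with vehicle in control recipients. With dabrafenib it was 8.44 to 10.49 and with trametinib 9.31 to 9.67. The mean over 8 macrophage markers was 9.04 to 9.52 with both drugs and 8.10 to 8.19 with vehicle in pmel-1 recipients, and 8.32 to 8.57 with both drugs and 7.69 with vehicle in control recipients. For 5 endothelial markers it was 6.64 to 7.15 with both drugs and 6.31 to 6.44 with vehicle in pmel-1 recipients, and 6.92 to 7.31 with both drugs and 6.505 to 6.73 with vehicle in control recipients. The mean over 5 skeletal muscle markers was 7.33 on 1 control vehicle array and at most 5.97 on the others. The part of other cell types, RNA quality and fat in the results was not tested beyond the values given beside them.

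Under both drugs, across both kinds of recipient, cyclin D1 and both E cyclins fell most and Cdk2 rose. In limma with Benjamini-Hochberg adjustment over all 13785 genes at an adjusted p of 0.05, 7 of the 10 genes were lower than with vehicle, 1 was higher and 2 did not pass. Among the 7 were Ccnd3, whose probe sets disagree in direction, and Cdk4, whose call held in 8 of 25 alternative settings. In the same comparison 52.6% of all genes passed, 28.1% higher and 24.5% lower. The median log2 difference was -0.51 over the 10 genes and 0.01 over all genes. For 6 of the 10 genes the 5 arrays with both drugs and the 4 with vehicle did not overlap, which held for 40.2% of all genes.

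**Figure D1:**
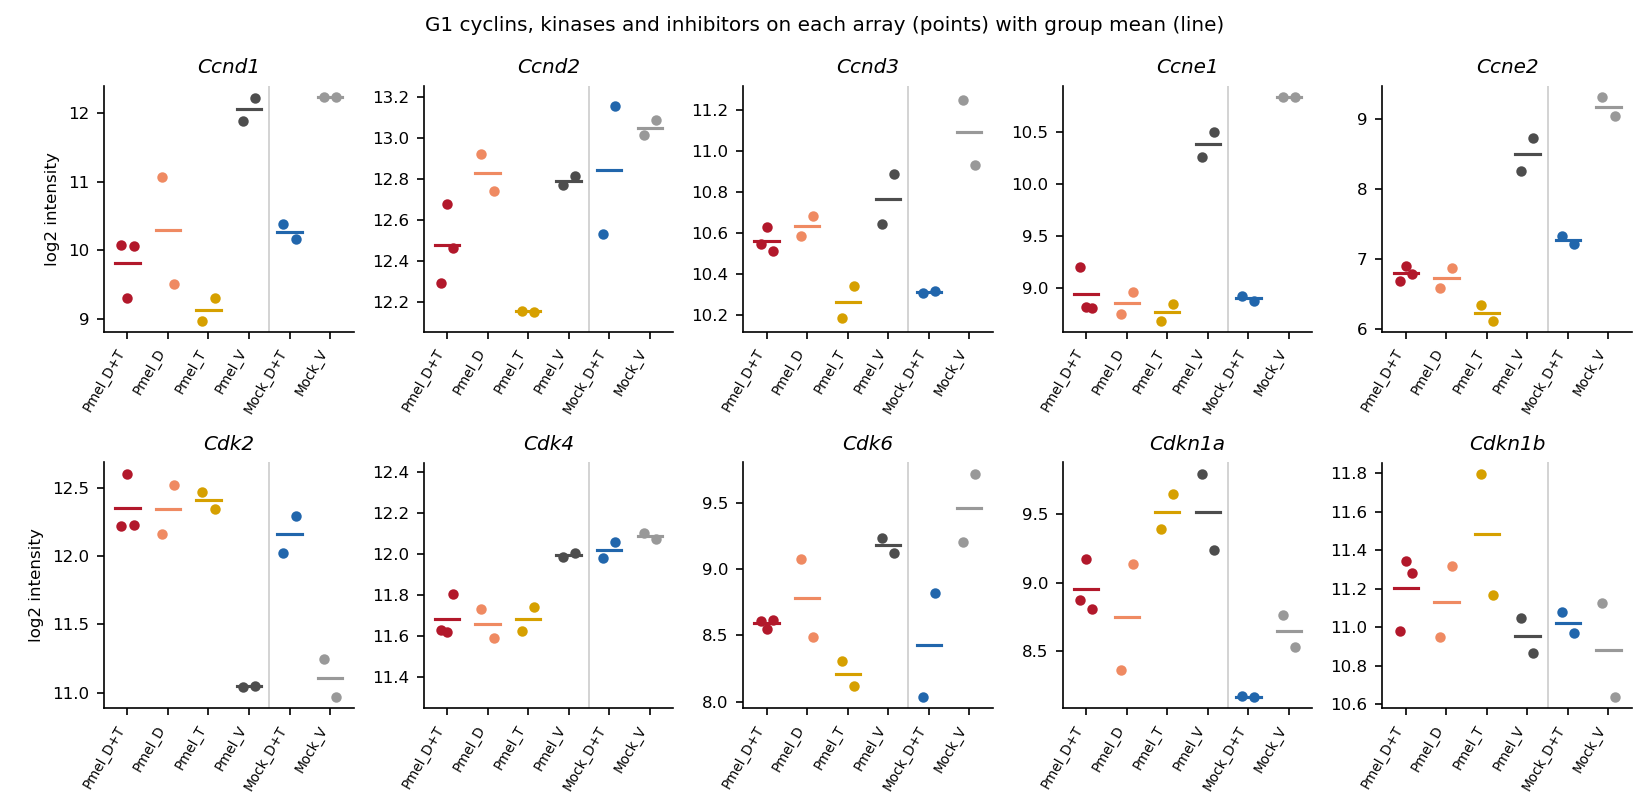
Log2 intensity (vertical axis) of each of the 10 genes on each of the 13 arrays (points), with the group mean (line), for pmel-1 (Pmel) and control (Mock) recipients given both drugs (D+T), dabrafenib (D), trametinib (T) or vehicle (V). Ccnd1, Ccne1 and Ccne2 are lower and Cdk2 is higher on each of the 9 drug-treated arrays than on each of the 4 vehicle arrays, while Cdkn1b overlaps.

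Ccnd1 encodes cyclin D1, the D cyclin most closely tied to ERK signalling. It read 10.07, 9.30 and 10.07 in pmel-1 tumours given both drugs, 11.08 and 9.51 with dabrafenib and 8.97 and 9.30 with trametinib, against 11.88 and 12.23 with vehicle. In control recipients it read 10.38 and 10.16 with both drugs and 12.24 on each vehicle array. No drug-treated array reached a vehicle array, and the dabrafenib arrays lay furthest apart. With both drugs Ccnd1 fell 4.30-fold over both kinds of recipient (log2 difference -2.10 ± 0.28 SE, adjusted p = 7.12e-05, limma). The fall was -2.24 ± 0.37 in pmel-1 recipients (adjusted p = 0.000588, limma) and -1.96 ± 0.41 in control recipients (adjusted p = 0.0032, limma), where the RNA quality ratios of the groups overlapped. In pmel-1 recipients the call did not hold with that ratio as a covariate (-0.90, adjusted p = 0.112, limma). All 3 probe sets of Ccnd1 fell, with log2 differences of -2.58 to -2.09.

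Ccnd2 and Ccnd3 encode the other D cyclins, which are also used by lymphocytes. Ccnd2 read 12.29, 12.68 and 12.46 with both drugs, 12.92 and 12.74 with dabrafenib and 12.16 and 12.15 with trametinib, against 12.77 and 12.82 with vehicle in pmel-1 recipients. Control tumours read 12.53 and 13.15 with both drugs and 13.01 and 13.09 with vehicle. The trametinib arrays were the lowest of all, the dabrafenib arrays spanned the pmel-1 vehicle values, and the arrays with both drugs in control recipients lay on either side of vehicle. With both drugs Ccnd2 did not pass (-0.26 ± 0.12, adjusted p = 0.0999, limma), and it passed over both kinds of recipient (-0.42, adjusted p = 0.007) and in control recipients (-0.52, adjusted p = 0.041, limma) only without control replicate 3 of that arm among the single arrays left out. With its probe set of largest variance it passed over both kinds of recipient (-0.53, adjusted p = 0.0127) and in pmel-1 recipients (-0.85, adjusted p = 0.00556, limma). Trametinib alone lowered it by 0.64 ± 0.18 on the log2 scale (adjusted p = 0.017, limma). That call was lost without either trametinib array (-0.64 without replicate 1 or 2) or either vehicle array (-0.66 without replicate 1, -0.61 without replicate 2) and with the RNA quality covariate (-0.75).

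The probe set with the highest level for Ccnd3 read 10.55, 10.63 and 10.51 with both drugs, 10.58 and 10.68 with dabrafenib and 10.18 and 10.34 with trametinib, against 10.64 and 10.89 with vehicle in pmel-1 recipients. Control tumours read 10.30 and 10.31 with both drugs and 11.25 and 10.93 with vehicle. Of the drug-treated arrays, 1 with dabrafenib lay within the vehicle range of its recipients and the others lay below theirs. It was lower with both drugs over both kinds of recipient (-0.49 ± 0.09, adjusted p = 0.000603, limma) and in control recipients (-0.78 ± 0.13, adjusted p = 0.000806, limma), not in pmel-1 recipients (-0.20 ± 0.12, adjusted p = 0.188, limma). Ccnd3 cannot be given a direction from these arrays, because a second probe set, at 6.44 to 7.70, rose with both drugs (0.48 ± 0.13, adjusted p = 0.00822) and the third did not pass (-0.10 ± 0.10, adjusted p = 0.424, limma over 24579 probe sets).

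Ccne1 and Ccne2 encode cyclins E1 and E2, the partners of Cdk2 and themselves E2F targets. Ccne1 read 9.20, 8.81 and 8.81 with both drugs, 8.75 and 8.96 with dabrafenib and 8.68 and 8.85 with trametinib, against 10.26 and 10.50 with vehicle in pmel-1 recipients. In control recipients it read 8.92 and 8.87 with both drugs and 10.83 on each vehicle array. Ccne2 read 6.69, 6.90 and 6.78 with both drugs, 6.58 and 6.87 with dabrafenib and 6.34 and 6.11 with trametinib, against 8.25 and 8.74 with vehicle in pmel-1 recipients. Control tumours read 7.33 and 7.21 with both drugs and 9.31 and 9.04 with vehicle. The gap between drug and vehicle arrays was wider than the spread within any group for both genes.

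With both drugs Ccne1 fell 3.22-fold (-1.69 ± 0.10, adjusted p = 3.28e-07, limma) and Ccne2 3.50-fold (-1.81 ± 0.12, adjusted p = 5.46e-07, limma). Ccne1 fell by 1.44 ± 0.14 on the log2 scale in pmel-1 and by 1.94 ± 0.15 in control recipients, and the Ccne2 difference was -1.70 ± 0.16 in pmel-1 and -1.91 ± 0.17 in control recipients. These calls, and those of both genes for each single drug against vehicle, held under all 25 alternatives. Both probe sets of Ccne1 fell, and the set used for Ccne1, like that of Cdk4, is of the type that may also match other sequences.

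The promoter of Ccne1 is shown because E2F control of this gene is the textbook link from cyclin D to S phase. RefSeq windows from 250 bases before to 50 bases after a transcription start (GRCm38.p6) were matched to 7 of the 10 genes, in 9 windows, and those of Ccnd1, Ccnd2 and Ccne2 were not used here. The Ccne1 window lies on the minus strand at chr7:38107441-38107740 and is 76.0% G and C, against a median of 52.7% over 32851 windows. Both strands were searched for 8 motifs, and capitals would mark a match. The E2F motifs were TTTCCCGC, TTTGGCGC and TTTCGCGC. The motif of the AP-1 factors was TGANTCA, and that of the cyclic AMP response was TGACGT. The E-box of the kind bound by MITF was searched as CATGTG. For the ETS factors the letters CCGGAAG were used, and for the FOXO factors GTAAACA. Matches of different motifs could share letters. None of the 8 strings is in the Ccne1 window. Any of the E2F strings is in only 1.84% of all windows, so a miss does not show that the window lacks E2F sites.
Ccne1: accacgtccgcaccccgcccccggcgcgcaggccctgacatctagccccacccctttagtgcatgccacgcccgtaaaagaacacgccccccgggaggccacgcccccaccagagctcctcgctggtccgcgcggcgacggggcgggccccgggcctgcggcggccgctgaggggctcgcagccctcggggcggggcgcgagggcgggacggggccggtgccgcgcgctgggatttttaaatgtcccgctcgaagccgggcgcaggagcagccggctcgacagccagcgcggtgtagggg

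Cdk2, the kinase the E cyclins activate, went the other way. It read 12.22, 12.60 and 12.23 with both drugs, 12.16 and 12.52 with dabrafenib and 12.47 and 12.34 with trametinib, against 11.04 and 11.05 with vehicle in pmel-1 recipients. Control tumours read 12.02 and 12.29 with both drugs and 11.25 and 10.97 with vehicle. The 9 drug-treated arrays all lay above the 4 vehicle arrays, whose order by recipient was not separated. With both drugs Cdk2 rose 2.26-fold (1.18 ± 0.12, adjusted p = 8.75e-06, limma), by 1.30 ± 0.16 in pmel-1 and 1.05 ± 0.17 in control recipients. With the RNA quality covariate the difference in pmel-1 recipients was 0.76 with both drugs, 0.78 with dabrafenib and 0.83 with trametinib, each still called. Its call held under all 25 alternatives in these comparisons and for each single drug. The value rests on 1 probe set, since the other, at 2.71 to 2.95, was under the filter on every array.

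The Cdk2 window is shown because Cdk2 is the gene of the 10 that rose, and because its window alone among the 9 holds one of the E2F strings. It lies on the minus strand at chr10:128705002-128705301 (GRCm38.p6, RefSeq) and is 64.7% G and C. Capitals mark GCGGGAAA, the reverse complement of the E2F motif TTTCCCGC, which starts 140 bases before the transcription start, and TGACGT, which starts 54 bases before it. TTTCCCGC is in 1.07% of all 32851 windows, any of the 3 E2F strings in 1.84% and TGACGT in 7.51%. A letter match is a description of the window and not a site that was measured.
Cdk2: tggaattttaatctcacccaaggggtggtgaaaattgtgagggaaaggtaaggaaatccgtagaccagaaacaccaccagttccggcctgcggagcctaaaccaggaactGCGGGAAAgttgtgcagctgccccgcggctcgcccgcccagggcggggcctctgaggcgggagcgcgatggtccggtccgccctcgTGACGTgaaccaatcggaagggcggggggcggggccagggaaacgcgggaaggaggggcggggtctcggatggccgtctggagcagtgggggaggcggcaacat

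In the RefSeq annotation Cdk2 lies on mouse chromosome 10, within the interval of the gene Pmel, which encodes gp100 itself, the antigen of the transferred pmel-1 T cells. In human melanocytes the transcription factor MITF is known to drive both genes from this shared locus. Whether the Cdk2 probe set also matches transcripts of the overlapping Pmel gene was not tested. Pmel read 13.93, 14.16 and 14.11 with both drugs, 13.95 and 14.17 with dabrafenib and 14.14 and 14.00 with trametinib, against 12.82 and 12.56 with vehicle in pmel-1 recipients. Control tumours read 13.93 and 14.14 with both drugs and 12.67 and 12.34 with vehicle. Pmel split the arrays in the same way as Cdk2 and rose by 1.45 ± 0.10 on the log2 scale with both drugs (adjusted p = 9.81e-07, limma). Mitf rose by 0.58 ± 0.07 (adjusted p = 2.53e-05, limma). Other neighbours, named after their values were seen, did not all move like Cdk2. Suox rose by 0.85 ± 0.13 and Rab5b by 0.35 ± 0.10, Pym1 fell by 0.40 ± 0.10, and Dgka did not pass (0.19 ± 0.09, adjusted p = 0.0942, limma).

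**Figure D2:**
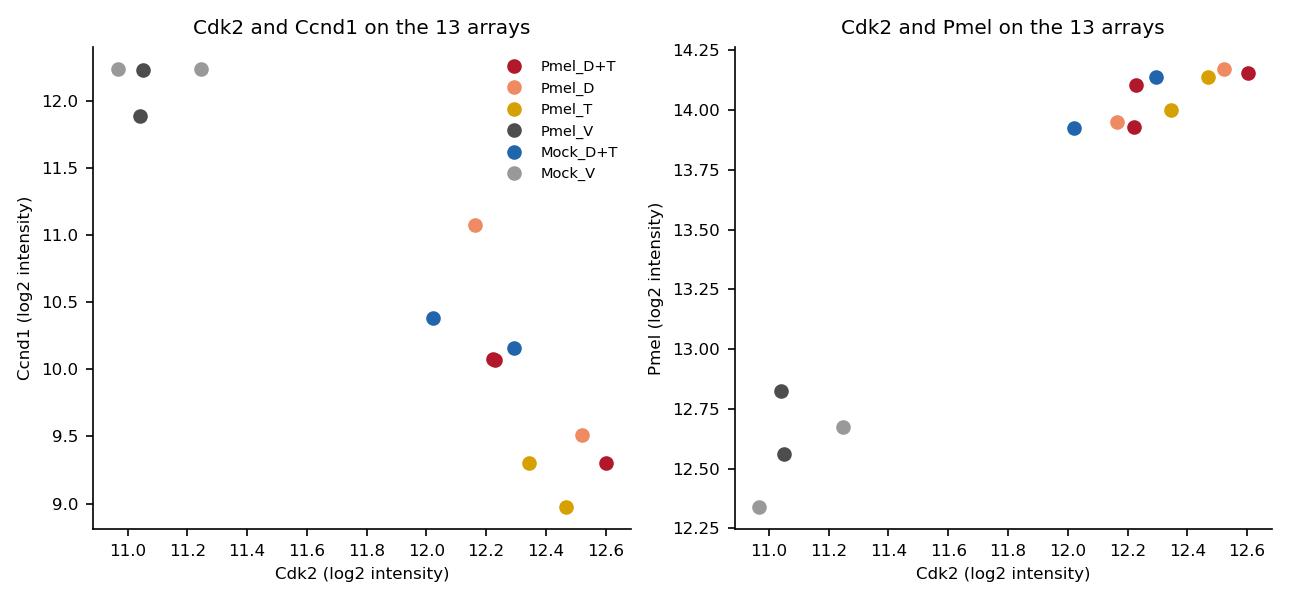
Log2 intensity of Cdk2 (horizontal axis) against Ccnd1 (left) and Pmel (right), 1 point for each of the 13 arrays, coloured by group. The 9 drug-treated arrays (Cdk2 12.02 to 12.60) and the 4 vehicle arrays (Cdk2 10.97 to 11.25) form separate clusters, with Ccnd1 low and Pmel high in the drug-treated cluster.

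Cdk4 and Cdk6, the kinases of the D cyclins, moved less. Cdk4 read 11.62, 11.62 and 11.80 with both drugs, 11.73 and 11.59 with dabrafenib and 11.62 and 11.74 with trametinib, against 11.98 and 12.00 with vehicle in pmel-1 recipients. Control tumours read 11.98 and 12.06 with both drugs and 12.10 and 12.07 with vehicle. Every drug-treated pmel-1 array lay under the pmel-1 vehicle arrays, and in control recipients the gap was narrower. Over both kinds of recipient Cdk4 fell by 0.19 ± 0.07 on the log2 scale (adjusted p = 0.0403, limma). Of 13 single arrays left out, that call was kept only without pmel-1 replicate 3 given both drugs or either dabrafenib array, with differences of -0.22 to -0.17 throughout, and it was lost with the RNA quality covariate (-0.13). In pmel-1 recipients alone it fell by 0.31 ± 0.10 (adjusted p = 0.0199, limma), a call lost without replicate 1 (-0.28) or 2 (-0.28) of that arm or vehicle replicate 1 (-0.32) or 2 (-0.30), and with the RNA quality covariate (-0.16). In control recipients the difference was -0.07 ± 0.10 (adjusted p = 0.65, limma), and the interaction did not pass (-0.24 ± 0.14, adjusted p = 0.433, limma).

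Cdk6 read 8.61, 8.55 and 8.62 with both drugs, 9.08 and 8.49 with dabrafenib and 8.31 and 8.12 with trametinib, against 9.23 and 9.12 with vehicle in pmel-1 recipients. Control tumours read 8.04 and 8.82 with both drugs and 9.20 and 9.72 with vehicle. Every drug-treated array was under every vehicle array, 1 dabrafenib array only just. Cdk6 fell by 0.81 ± 0.17 over both kinds of recipient (adjusted p = 0.0021, limma) and by 1.03 ± 0.25 in control recipients (adjusted p = 0.00856, limma), and the call in control recipients was lost without control replicate 2 given both drugs (-0.64) or vehicle replicate 3 (-0.78). In pmel-1 recipients alone it did not pass (-0.58 ± 0.23, adjusted p = 0.0612, limma) and passed in 4 of 13 fits with 1 array left out. These were the fits without dabrafenib replicate 1 or 2 and without control replicate 2 or 3 given both drugs, each at -0.58. It also passed with median centring (-0.63), array weights (-0.58) and only the arrays compared (-0.58), and in 8 of all 25 alternatives, and it was -0.27 with the RNA quality covariate (adjusted p = 0.685, limma).

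The inhibitors did not rise with both drugs. Cdkn1a, which encodes p21 and is induced by p53, read 8.88, 9.17 and 8.81 with both drugs, 8.36 and 9.14 with dabrafenib and 9.39 and 9.65 with trametinib, against 9.80 and 9.24 with vehicle in pmel-1 recipients. Control tumours read 8.17 and 8.16 with both drugs and 8.77 and 8.53 with vehicle. Within each kind of recipient the arrays with both drugs lay under vehicle, while trametinib arrays lay within the vehicle range in the set used. In the other tested set trametinib read 8.13 and 8.77 against 9.01 and 8.68 with vehicle. Over both kinds of recipient Cdkn1a fell by 0.52 ± 0.17 on the log2 scale (adjusted p = 0.0207, limma). The call was lost without pmel-1 vehicle replicate 1 (-0.38), control replicate 3 given both drugs (-0.52) or control vehicle replicate 1 (-0.46). It did not pass in pmel-1 (-0.56 ± 0.22, adjusted p = 0.0612) or in control recipients alone (-0.48 ± 0.25, adjusted p = 0.159, limma), and passed in pmel-1 recipients in 4 of 13 fits with 1 array left out: without replicate 2 given both drugs (-0.67), either dabrafenib array (-0.56 each) or vehicle replicate 2 (-0.84). In pmel-1 recipients it passed in 10 of all 25 alternatives, among them the RNA quality covariate (-1.18, adjusted p = 0.0248), the fit without the 3 arrays with raised Adipoq (-0.67, adjusted p = 0.0163) and the mean of its probe sets (-0.72, adjusted p = 0.00761, limma).

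Cdkn1b encodes p27, which accumulates in resting cells mainly through slower breakdown of the protein. It read 10.98, 11.35 and 11.28 with both drugs, 10.95 and 11.32 with dabrafenib and 11.80 and 11.17 with trametinib, against 11.05 and 10.87 with vehicle in pmel-1 recipients. Control tumours read 11.08 and 10.97 with both drugs and 11.13 and 10.64 with vehicle. The groups overlapped except for trametinib against vehicle, and 1 trametinib array was the highest of all. The difference with both drugs was 0.20 ± 0.15 (95% interval -0.14 to 0.53, adjusted p = 0.318, limma), and with trametinib 0.53 ± 0.23 (adjusted p = 0.0891, limma). These values rest on 1 probe set, since the other, at 4.31 to 5.63, was under the filter on every array. The trametinib difference was 0.84 without trametinib replicate 2, 0.21 without replicate 1 and -0.15 with the mean of both Cdkn1b sets.

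At the level of probe sets, 17 of the 25 tested passed with both drugs, 15 lower and 2 higher, where 50.2% of all 24579 probe sets passed. The 2 that rose were those of Cdk2 and the second set of Ccnd3. Of 7 Ccnd2 sets 3 fell, with differences of -0.53 to -0.06 over all 7. Both Cdk6 sets fell (-0.81 and -0.46), as did both Cdkn1a sets (-0.62 and -0.52). The second Cdk6 set fell in control recipients (-0.82 ± 0.17, adjusted p = 0.00398, limma). In pmel-1 recipients that set did not pass with both drugs (-0.09 ± 0.16), dabrafenib (0.14 ± 0.17) or trametinib (-0.42 ± 0.17). The other tested Cdkn1a set fell in pmel-1 recipients with both drugs (-0.87 ± 0.18, adjusted p = 0.00223) and with dabrafenib (-1.09 ± 0.20, adjusted p = 0.00138, limma). It did not pass with trametinib (-0.39 ± 0.20) or in control recipients given both drugs (-0.37 ± 0.20). Of 3 Cdk4 sets only 1 fell over both kinds of recipient (-0.43), and the set used for the gene missed the threshold in this larger family (-0.19 ± 0.07, adjusted p = 0.0508, limma). In pmel-1 recipients all 3 Cdk4 sets fell with both drugs (-0.62 to -0.31) and with dabrafenib (-0.71 to -0.33). With trametinib 2 of the 3 passed (-0.52 to -0.31 over all 3), and in control recipients given both drugs 0 passed (-0.25 to -0.07).

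**Figure D3:**
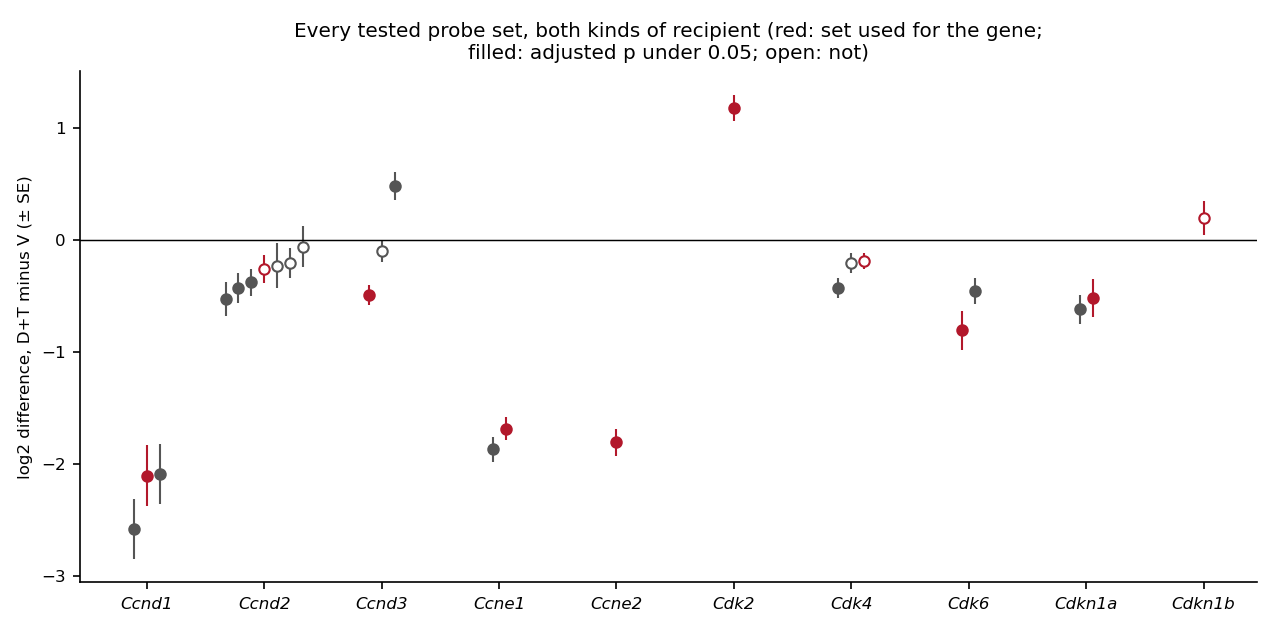
Log2 difference between both drugs and vehicle over both kinds of recipient (vertical axis, ± SE) for each of the 25 tested probe sets, by gene. Red marks the set used for the gene, and filled points passed an adjusted p of 0.05. The 3 Ccnd1 sets lie between -2.58 and -2.09, whereas the 3 Ccnd3 sets lie on both sides of 0.

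By recipient, 5 of the 10 genes passed in pmel-1 recipients, 4 lower and 1 higher, where 45.6% of all genes passed, 21.2% lower and 24.3% higher. In control recipients 6 passed, 5 lower and 1 higher, where 35.4% of all genes passed, 16.7% lower and 18.7% higher. The 5 include Ccnd3 in the set used. The groups did not overlap for 9 genes in pmel-1 recipients (63.3% of all genes) and for 8 in control recipients (69% of all genes). The difference between these effects was tested as an interaction, pmel-1 minus control. None of the 10 genes passed in limma, 2 had an unadjusted p under 0.05, and 0.283% of all genes passed. Those 2 were Ccnd3 in the set used (0.58 ± 0.17, adjusted p = 0.167) and Ccne1 (0.50 ± 0.20, adjusted p = 0.264). For the interaction the second Ccnd3 set gave -0.47 ± 0.25 and the third 0.35 ± 0.19, neither called.

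Each single drug in pmel-1 recipients was compared with the same 2 vehicle arrays that served the combination, so the 3 comparisons share them. With dabrafenib 6 of the 10 genes passed, 5 lower and 1 higher, where 41.4% of all genes passed, 19.6% lower and 21.8% higher. With trametinib 8 passed, 7 lower and 1 higher, where 38.6% of all genes passed, 19.1% lower and 19.5% higher. The 7 include Ccnd3 in the set used. Drug and vehicle arrays did not overlap for 7 genes with dabrafenib (70.9% of all genes) and for 9 with trametinib (71.7% of all genes). The Ccnd1 difference was -1.76 ± 0.41 with dabrafenib (adjusted p = 0.00528, limma) and -2.92 ± 0.41 with trametinib, a fall of 7.57-fold (adjusted p = 0.000282, limma). With the RNA quality covariate the trametinib value was -1.60 (adjusted p = 0.015, limma). The dabrafenib value was -2.54 without dabrafenib replicate 1 and -0.98 without replicate 2, the one with raised Adipoq, both still called, and -0.48 (adjusted p = 0.413, limma) with the RNA quality covariate.

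The E cyclins and Cdk2 passed in both arms. The Ccne1 difference was -1.53 ± 0.15 with dabrafenib and -1.62 ± 0.15 with trametinib, and the Ccne2 difference was -1.77 ± 0.17 with dabrafenib and -2.27 ± 0.17 with trametinib. Cdk2 rose by 1.30 ± 0.17 with dabrafenib and 1.36 ± 0.17 with trametinib. Each of the remaining calls was lost without at least 1 single array. Ccnd3 in the set used fell by 0.50 ± 0.13 with trametinib, a call lost without trametinib replicate 1 (-0.42) or vehicle replicate 2 (-0.38), and did not pass with dabrafenib (-0.13 ± 0.13, adjusted p = 0.463, limma). Cdk6 in the set used fell by 0.97 ± 0.25 with trametinib, while its second set did not pass. The call of the set used was lost without trametinib replicate 2 (-0.87), vehicle replicate 1 (-0.91) or with the RNA quality covariate (-0.66). With dabrafenib Cdk6 did not pass (-0.40 ± 0.25, adjusted p = 0.246, limma). Cdk4 lost both its calls with the RNA quality covariate (-0.19 with dabrafenib, -0.17 with trametinib). It fell by 0.33 ± 0.10 with dabrafenib, lost without dabrafenib replicate 2 (-0.26) or vehicle replicate 1 (-0.34) or 2 (-0.32), and by 0.31 ± 0.10 with trametinib, lost without trametinib replicate 1 (-0.25) or 2 (-0.37) or vehicle replicate 1 (-0.32) or 2 (-0.30).

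Cdkn1a fell by 0.77 ± 0.25 with dabrafenib (adjusted p = 0.027, limma), a call lost without dabrafenib replicate 1 (-0.38) or vehicle replicate 1 (-0.49). The difference was -1.15 without dabrafenib replicate 2 and -1.35 with the RNA quality covariate, called in both. With trametinib it differed by 0.0029 ± 0.25 in the set used (adjusted p = 0.995, limma). The other tested set gave -0.39 ± 0.20 (adjusted p = 0.142, limma over all tested probe sets).

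**Figure D4:**
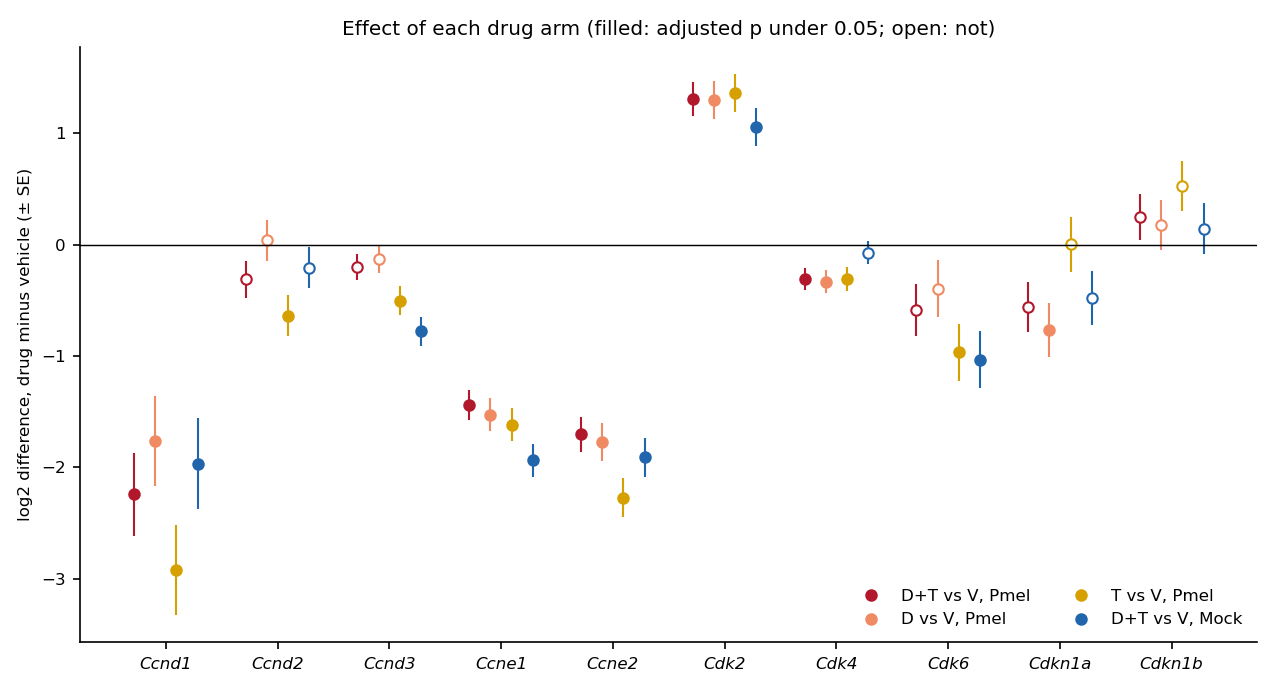
Log2 difference between drug and vehicle (vertical axis, ± SE) for each gene with both drugs, dabrafenib or trametinib in pmel-1 recipients, which share their vehicle arrays, and with both drugs in control recipients. Filled points passed an adjusted p of 0.05. Ccnd1 ranges from -2.92 with trametinib to -1.76 with dabrafenib, while Cdk2 lies between 1.05 and 1.36 in all 4.

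Set directly against each other, dabrafenib and trametinib differed in none of the 10 genes in limma, 6 had an unadjusted p under 0.05, and 0.776% of all genes passed. Their arrays did not overlap for 6 genes, as for 40.3% of all genes. Dabrafenib minus trametinib was 1.16 ± 0.41 for Ccnd1 (95% interval 0.26 to 2.05, adjusted p = 0.271) and 0.68 ± 0.18 for Ccnd2 (0.28 to 1.08, adjusted p = 0.132, limma). It was -0.77 ± 0.25 for Cdkn1a (-1.31 to -0.23, adjusted p = 0.209, limma). For Ccne1 the interval was -0.24 to 0.42 and for Cdk2 -0.44 to 0.31. With the RNA quality covariate (1.13, adjusted p = 0.037, limma) or without the 3 arrays with raised Adipoq (1.78, adjusted p = 0.022, limma) the Ccnd1 difference passed. Leaving out those 3 arrays left 1 array in each single-drug arm, assumed to vary like the other groups. Left out singly, dabrafenib replicate 1 gave 0.38 and replicate 2 gave 1.94 for Ccnd1, neither called.

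The combination differed from dabrafenib alone in none of the 10 genes, and none had an unadjusted p under 0.05 in limma, where 0% of all genes passed. For Ccnd1 the difference was -0.48 ± 0.37 (95% interval -1.30 to 0.34). Against trametinib alone none passed, 3 had an unadjusted p under 0.05, and 1.1% of all genes passed in limma. Those 3 were Ccne2 (0.57 ± 0.16, adjusted p = 0.126), Ccnd3 in the set used (0.30 ± 0.12, adjusted p = 0.288) and Cdkn1a (-0.57 ± 0.22, adjusted p = 0.296). Here the second Ccnd3 set gave -0.19 ± 0.17 and the third 0.20 ± 0.13, neither called. Ccnd1 was 0.68 ± 0.37 (-0.14 to 1.50), so its 3 arrays with both drugs lay between those of the single drugs on average. Arrays did not overlap for 1 gene against dabrafenib (11% of all genes) and for 6 against trametinib (29%).

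Pmel-1 and control recipients given vehicle differed in none of the 10 genes in limma, with 4 at an unadjusted p under 0.05 and 0% of all genes passing. Pmel-1 minus control was 0.87 ± 0.25 on the log2 scale for Cdkn1a (adjusted p = 0.195) and -0.68 ± 0.17 for Ccne2 (adjusted p = 0.179, limma). The others were Ccne1 (-0.45 ± 0.15, adjusted p = 0.242) and Ccnd3 in the set used (-0.33 ± 0.13, adjusted p = 0.314). Between these vehicle groups the second Ccnd3 set gave 0.46 ± 0.19 and the third -0.20 ± 0.14, neither called. With both drugs none of the 10 genes passed either, with 3 at an unadjusted p under 0.05, where 4.24% of all genes passed. Cdkn1a was 0.79 ± 0.22 (adjusted p = 0.0701), Cdk4 -0.33 ± 0.10 (adjusted p = 0.0696) and Ccne2 -0.48 ± 0.16 (adjusted p = 0.098, limma). The other tested Cdkn1a set gave only 0.26 ± 0.18 (adjusted p = 0.412, limma over all tested probe sets). Cdkn1a passed without dabrafenib replicate 1 or 2 (0.79, adjusted p = 0.024 each) and Cdk4 without pmel-1 replicate 3 given both drugs (-0.40, adjusted p = 0.044, limma). The RNA quality ratio did not overlap between these groups, at 1.13 to 1.49 in pmel-1 and 0.345 to 0.565 in control tumours given both drugs. With it as a covariate the difference was -0.00947 for Cdkn1a, -0.14 for Cdk4 and -0.91 for Ccne2, none called, and 2 genes of all passed in place of 584. The groups did not overlap for 7 genes with vehicle (46.5% of all genes) and for 5 with both drugs (42.6%). The leukocyte marker level given above was also higher in pmel-1 than in control tumours in both arms.

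Ordered by group mean, Ccnd1, Ccne1 and Ccne2 in the sets used each ran from control vehicle through pmel-1 vehicle to the drug arms, with trametinib lowest. For Ccnd1 the order of the vehicle groups rests on a small difference that did not pass (-0.18 ± 0.41, adjusted p = 0.911, limma). In another Ccnd1 set it was reversed, with pmel-1 vehicle at 10.26 and 10.51 and control vehicle at 9.79 and 9.53. For Ccne1 the 4 drug groups lay under pmel-1 vehicle without overlap, and drug groups next to each other in the order were not separated. For Ccne2 control tumours with both drugs (mean 7.27 ± 0.08 SD, n = 2) stayed above pmel-1 tumours with both drugs (6.79 ± 0.11 SD, n = 3), and those overlapped with dabrafenib (6.72 ± 0.21 SD, n = 2) but not trametinib (6.22 ± 0.16 SD, n = 2). In the set used for Cdkn1a, the 4 pmel-1 groups, at means of 8.75 to 9.52, all lay above control vehicle (8.65 ± 0.17 SD, n = 2). The dabrafenib arrays overlapped with it, and control tumours with both drugs were lowest (8.17 ± 0.01 SD, n = 2). This order did not hold in the other tested Cdkn1a set. There the dabrafenib arrays (7.67 and 7.84) lay under control vehicle (8.12 and 8.05), and pmel-1 tumours with both drugs read 8.05, 8.09 and 7.78.

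The genes whose levels followed Ccnd1 most closely over the 13 arrays were Inka1 (Pearson r = 0.98), Nwd2 and Fbl (0.97 each), and the most opposite was Ttc23 (-0.98). Because drug and vehicle arrays form separate clusters, these values mostly restate that split. Over the 9 drug-treated arrays alone, r with Ccnd1 was 0.91 for Inka1, 0.92 for Nwd2, 0.95 for Fbl, which encodes the nucleolar protein fibrillarin, and -0.90 for Ttc23. For Cdkn1b, which was not split by drug, the closest were Ikbip, Rcan1 and Neo1 (0.90 each over 13 arrays). These are descriptions over arrays that share their normalization, chosen as the extremes among all tested genes.

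Genes around the 10 in the same pathway were taken from 5 lists. Of 32 other G1 regulators 17 fell and 6 rose with both drugs over both kinds of recipient, with a median difference of -0.39, where 24.5% of all genes fell and 28.1% rose. Among those that fell were Skp2, which marks p27 for breakdown (-1.44 ± 0.07), E2f1 (-1.0 ± 0.08), its partner Tfdp1 (-1.13 ± 0.09) and Cdc25a, the phosphatase that activates Cdk2 (-0.87 ± 0.09). The retinoblastoma gene Rb1 (0.67 ± 0.12), its relative Rbl2 (0.59 ± 0.07) and the Cdk4 and Cdk6 inhibitor Cdkn2c (0.53 ± 0.12) rose. Other inhibitors fell, among them Cdkn2b, which encodes p15 (-1.67 ± 0.20), and Cdkn1c, which encodes p57 (-1.0 ± 0.16), while Cdkn2a did not pass (0.01 ± 0.08, adjusted p = 0.899, limma). By arm, 16 of the 32 fell and 4 rose in pmel-1 recipients and 15 fell and 4 rose in control recipients given both drugs, 17 fell and 4 rose with dabrafenib, and 16 fell and 3 rose with trametinib. Of all genes, 21.2%, 16.7%, 19.6% and 19.1% fell and 24.3%, 18.7%, 21.8% and 19.5% rose in those arms, in the same order.

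The genes listed here as E2F targets of S phase moved together. All 24 tested genes of this list fell, with a median of -1.10, where 24.5% of all genes fell. Cdc6, which licenses replication origins, fell by 2.36 ± 0.13 (adjusted p = 2.27e-07, limma), and so did the uracil glycosylase Ung (-1.93 ± 0.14), the chromatin factor Uhrf1 (-1.75 ± 0.11) and the helicase subunit Mcm6 (-1.61 ± 0.10). Cdc6 read 6.46, 6.00 and 6.13 with both drugs against 8.19 and 8.41 with vehicle in pmel-1 recipients, and 6.51 and 6.28 against 9.10 and 8.91 in control recipients. Of these 24 genes, 23 fell in pmel-1 recipients and 24 in control recipients given both drugs, 22 with dabrafenib and 23 with trametinib. Ccna2, which encodes cyclin A2 and was counted among the other G1 regulators, did not pass (0.24 ± 0.11, adjusted p = 0.099, limma).

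Of 17 tested of 22 targets of p53, the regulator of Cdkn1a, 7 rose and 5 fell, with a median of 0.04. Of all genes 28.1% rose and 24.5% fell, so the share that fell was near that of all genes. Trp53inp1 (2.11 ± 0.15), Sesn1 (0.89 ± 0.11) and Ccng1 (0.81 ± 0.11) rose, whereas Plk2 (-1.04 ± 0.19), Aen (-0.99 ± 0.08) and Mdm2, which marks p53 for breakdown (-0.23 ± 0.07), fell. Of 14 FOXO target and quiescence genes, 7 rose and 3 fell, with a median of 0.50, against the same shares of all genes. The stress protein gene Sesn3 rose by 1.99 ± 0.08, reading 12.74 to 12.86 in pmel-1 tumours with both drugs against 10.81 and 10.86 with vehicle. Ypel3 rose by 1.38 ± 0.09 and Ccng2, a cyclin of resting cells, by 0.90 ± 0.12, and Trib2 fell by 2.01 ± 0.20.

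Of 14 genes listed as ERK to cyclin D regulators, 13 were tested (Fosl1 was under the filter). Of these 8 fell and 1 rose, with a median of -0.60, where 24.5% of all genes fell and 28.1% rose. The gene that rose was Mitf, set beside the others because it acts on Cdk2 and Cdkn1a in melanocytes. The ETS factor Etv4 (-3.29 ± 0.08), the ERK feedback inhibitor Spry4 (-3.07 ± 0.43) and the early response gene Egr1 (-2.42 ± 0.23) fell. Myc did not pass (-0.10 ± 0.18, adjusted p = 0.671, limma). Etv4 read 7.03, 6.87 and 7.01 with both drugs, against 10.24 and 10.27 with vehicle in pmel-1 recipients. Without the 3 arrays with raised Adipoq, the numbers passing were 22 for the other G1 regulators, 24 for the E2F targets, 12 for the p53 targets, 11 for the FOXO targets and 9 for the ERK list, where 49.5% of all genes passed. With the RNA quality covariate they were 22, 24, 11, 11 and 7 in the same order, where 42.5% of all genes passed.

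**Figure D5:**
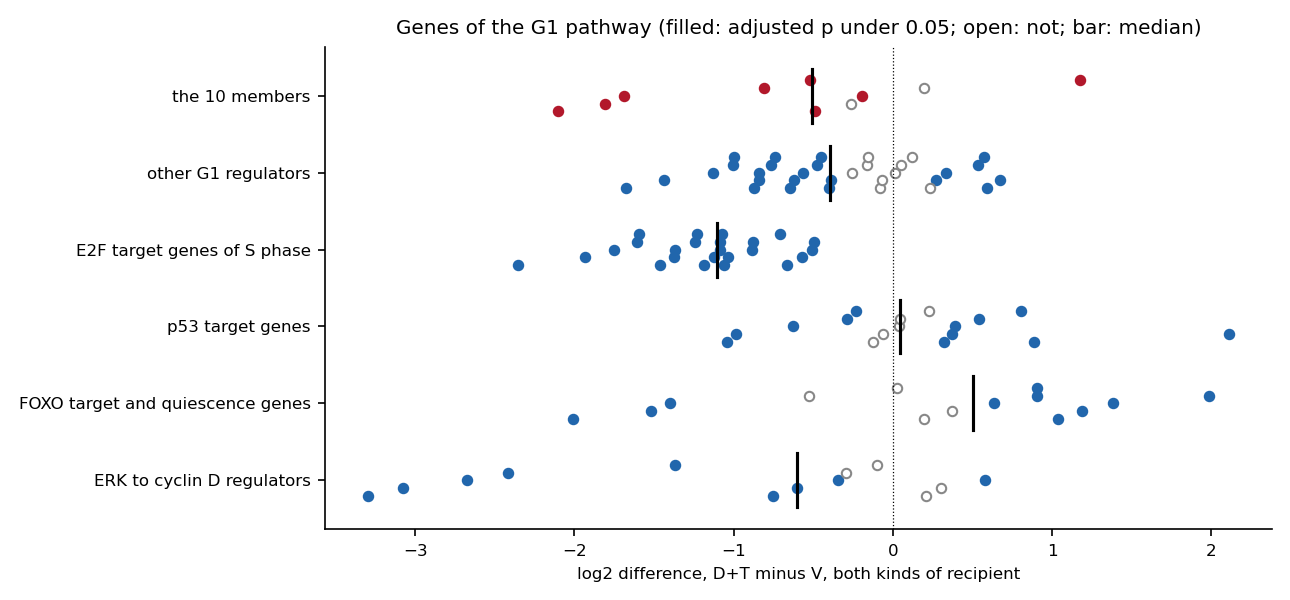
Log2 difference between both drugs and vehicle over both kinds of recipient (horizontal axis) for the 10 genes (top row) and the 5 lists around them, 1 point a gene, with bars at the medians. Filled points passed an adjusted p of 0.05. All 24 E2F targets lie left of 0, around a median of -1.10, while the p53 targets lie on both sides of a median of 0.04.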

How the data were processed

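RNA of 13 SM1 tumours was hybridised to Affymetrix mouse arrays, 1 sample each. The deposited values are log2 intensities per probe set, made by the authors with RMA and the affy package per the submitters' processing notes, which give no versions. Array maxima of 14.94 to 15.06 are in the range of that unit, and all 13 columns were mapped by title. Of 45101 probe sets, 64 were controls, 34945 had 1 gene symbol and 932 had several. The gene names are those of GEO's platform annotation, and 0 of 18193 symbols needed an update from RefSeq.

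Where a gene had several probe sets, the brightest on average stood for it. Testing took genes that exceeded 5.79, the 40th percentile of the table, on at least 2 arrays, 13785 in all. Group means over the 6 groups were fitted in R 4.3.3 by lmFit and eBayes of limma 3.58.1, with 7 residual degrees of freedom, so that groups share 1 variance per gene, and p-values were adjusted by Benjamini-Hochberg over all genes for each of 11 contrasts at 0.05. Each probe set was also tested, over 24579. Errors are standard errors of the fit, moderated by eBayes, unless given as SD. The script was tested on simulated data. Named genes were the 10 members, and of each list those with the smallest p and a few known regulators. RNA quality is the mean log2 ratio over 5 pairs of 3′ and 5′ control probe sets. Members and lists were chosen with earlier results of these data known.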

Additional observations from a re-analysis of the deposited data

How the results depend on the processing

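In 25 alternative settings (scaling, filter, probe set rule, array weights, prior, arrays entering the fit, replicate block, RNA quality covariate, arrays left out), 2639 of 2739 values for the 10 genes kept their side of the threshold and, where called, their direction. A further 64 lost a call, 33 gained one and 3 reversed. All 3 reversals are Ccnd3 with its probe set of largest variance: 0.48 over both kinds of recipient, 0.72 in control recipients and 0.43 with trametinib, of which the trametinib value did not pass (adjusted p = 0.088, limma). Cdkn1b has no value in that setting, since that set is under the filter. With trametinib against vehicle, 8 genes passed, and 5 with the RNA quality covariate, 5 without the 3 arrays with raised Adipoq, and 5 to 8 with single arrays left out. Between dabrafenib and trametinib, where 0 passed, 1 did with that covariate and 1 without the 3 arrays, Ccnd1 each time. Between recipients given both drugs, where 0 passed, 1 did with the largest-variance probe set (Ccnd2), 1 with only the arrays compared (Cdkn1a), 1 with an intensity trend and robust prior (Cdk4), and 0 to 1 with single arrays left out. The causes were not tested. Replicate numbers did not pair the arrays: deviations from group means correlated at -0.46 to 0.45 over 23 pairs with the same number, 4 of them over 0.1, and 1 of 13 arrays correlated best with its own number. With the number as a replicate block, 7 genes passed with both drugs, 6 in pmel-1 and 6 in control recipients, 6 with dabrafenib, 7 with trametinib and 0 in the other 6 contrasts. Cdk6 in pmel-1 recipients given both drugs gained a call (-0.72, adjusted p = 0.0116, limma), and Cdk4 lost its calls with both drugs over both kinds of recipient (-0.20) and with trametinib (-0.31). The low number of arrays limits what small differences, such as those of Cdk4, can show. The list counts without the 3 arrays and with the covariate were added after seeing the data.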
